A study of Mus musculus with 8 samples.

Results

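The genes described here are the P4-ATPase phospholipid flippases of the mouse retina, represented by Atp8a1, Atp8a2, Atp8b2, Atp9a, Atp9b, Atp10a, Atp11a and Atp11b, together with Tmem30a, the accessory subunit of most of them. These 9 genes were matched through the transcript accessions of the array and had 22 probes among the 56605 probes that were not controls. They were selected on the measured difference between the genotypes on these arrays, in that the list was drawn up with those results known, so this difference is given for them as a description, with no test. Of the 22 probes, 19 passed the filter on dim signals, and all 19 were well above background on all 8 arrays. The filter kept 37085 probes of the whole array.

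Whole retina was taken from aged mice, 46 to 55 weeks old by the labels, that were homozygous Mrp4 knockout or wild-type. The study's methods give a C57BL/6J background for the knockout, and the strain of the wild-type mice is not given in the sources used here. Mrp4 is the efflux transporter encoded by Abcc4. Labelled cRNA made from total RNA was hybridised to 4 one-colour Agilent arrays per genotype, all on 1 slide. The methods name tissue from 3 mice and do not make clear whether each array holds a pool, so the spread between arrays may be technical in part.

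The Abcc4 probe went against the labels. Its normalized log2 signal was 10.84, 10.71, 10.64 and 10.80 under the Mrp4-null label and 6.62, 7.13, 6.54 and 7.02 in wild-type, a log2 difference of 3.92 (SE 0.14, n = 4 per genotype, limma adjusted p = 1.36e-05). Where on the transcript this probe lies relative to the knocked-out part was not worked out here. Every direction below therefore follows the labels. The 4 arrays of each genotype occupied 1 row of the slide, so genotype and slide row cannot be told apart. The 75th percentile of the unnormalized signal was lowest on Mrp4-null array 2 (497) and wild-type array 3 (514) and lay between 566 and 786 on the other 6. Transcripts of the sex chromosomes also differed between the groups. Xist exceeded background clearly on the 4 Mrp4-null arrays and on wild-type arrays 1 and 2. The 7 probes of 4 Y-linked genes were well above background on none of the Mrp4-null arrays. In wild-type they were so at most on arrays 2, 3 and 4. Wild-type array 2 thus carried both, with an unnormalized Xist signal of 507 and Y-linked signals of up to 932. Xist read 2.7 and 2.6 on wild-type arrays 3 and 4. Whether array 2 holds tissue of mice of both sexes was not tested.

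All 8 rod marker genes were well above background on every array, with a mean log2 signal of 16.37 to 16.47 under the Mrp4-null label and 16.34 to 16.46 in wild-type. Markers of lens, a neighbouring tissue of the eye, were detected too. Averaged over 12 lens genes, the log2 signal of single arrays was 6.67, 6.27, 7.79 and 8.87 for the Mrp4-null label and 9.08, 10.10, 7.66 and 8.50 for wild-type, and no lens gene passed the test. Of these genes, 11 were well above background on all Mrp4-null arrays and 12 on all wild-type arrays. The part of lens RNA in the flippase differences was not tested.

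P4-ATPases use ATP to move phospholipids from the outer or lumenal leaflet of a membrane to its cytosolic leaflet. They keep phosphatidylserine, the lipid that marks dying cells and spent photoreceptor tips for engulfment, on the inner face of the plasma membrane. Most of them leave the endoplasmic reticulum only when bound to Tmem30a, whereas Atp9a and Atp9b do not need it. In the retina the family is best known through Atp8a2, which acts in photoreceptors and whose loss in mice leads to degeneration of neurons and photoreceptors.

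The largest differences among the 9 genes were in Atp11a and Atp8a1, and each was carried by 1 probe. Atp11a, a plasma membrane flippase of phosphatidylserine and phosphatidylethanolamine, was 1.13 lower on the log2 scale on the arrays labelled Mrp4-null at probe A_52_P373251. Atp8a1, a flippase of the plasma membrane and recycling endosomes, was 0.71 lower at probe A_52_P534844. The other 17 probes of these genes lay between -0.22 and 0.30. Both differences are among the values known when the genes were listed. In RNA of whole retina, fewer cells of a type and less RNA per cell cannot be told apart. Why the other probes of Atp11a and Atp8a1 moved less was not tested.

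The windows just upstream of the annotated starts of these 2 genes are shown because they are the flippase genes with a probe past the thresholds. They are the 250 bases before the start in RefSeq's GRCm38.p6, read 5′ to 3′ on the gene's strand, and capitals mark GGGCGG and its reverse complement CCGCCC, the core of the GC box.
Atp11a (chr8:12756766-12757015, plus strand): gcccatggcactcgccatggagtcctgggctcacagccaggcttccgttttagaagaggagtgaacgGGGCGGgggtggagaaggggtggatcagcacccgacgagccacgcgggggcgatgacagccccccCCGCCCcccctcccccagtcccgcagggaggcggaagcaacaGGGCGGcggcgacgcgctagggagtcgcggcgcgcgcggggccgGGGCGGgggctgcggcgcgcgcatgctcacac
Atp8a1 (chr5:67847432-67847681, minus strand): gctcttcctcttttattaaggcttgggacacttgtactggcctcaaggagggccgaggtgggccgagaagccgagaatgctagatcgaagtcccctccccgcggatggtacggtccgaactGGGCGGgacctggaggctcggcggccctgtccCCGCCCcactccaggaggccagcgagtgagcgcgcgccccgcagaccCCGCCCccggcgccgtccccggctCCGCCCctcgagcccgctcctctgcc
Each window held 4 such matches. The Atp11a window was 74.4% G or C with 29 CpG dinucleotides, and the Atp8a1 window 70.4% with 25. Over the 32851 windows of this length in the table, the medians were 52.4% and 6, and GGGCGG was found on either strand of 32.7%. TAATCC, the core of the CRX site of photoreceptor genes, was found in neither window and in 6.3% of all windows. CCAAT (33.8% of all windows) and TATAAA (12.4%) were not matched either, in each case over both strands. The table held a window for 7 of the 9 genes, and such windows were not particular to these 2. The Atp11b window was 67.6% G or C with 24 CpG and 6 matches to GGGCGG, and 1 of the 4 Atp9a windows was 88.0% with 53 CpG and 5 matches, whereas the Tmem30a window was 62.8% with 22 CpG and 0 matches.

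The Atp11a probe A_52_P373251 had a normalized log2 signal of 12.42, 12.07, 12.20 and 12.30 under the Mrp4-null label and of 13.39, 13.40, 13.31 and 13.40. The groups were separated by a gap of 0.897, more than the whole range within either. The log2 difference was -1.13 (SE 0.09, n = 4 per genotype, 95% interval -1.33 to -0.92), or 2.19-fold lower. Xist and Y-linked transcripts differed between the groups as given above, and their part in this difference was not tested.

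The other Atp11a probes moved less. A_55_P1971074, matched to the same transcript accession as A_52_P373251, read 13.84, 13.58, 13.82 and 13.74 under the Mrp4-null label and 14.03, 13.97, 13.91 and 13.93 in wild-type. Its groups did not overlap either, but the difference was -0.22 (SE 0.08). A_51_P504114, matched to another Atp11a transcript, had a difference of -0.01 (SE 0.18), with the groups overlapping. Within an array, the log2 signal of A_52_P373251 minus that of A_55_P1971074 was -1.62 to -1.42 under the Mrp4-null label and -0.64 to -0.53 in wild-type. The genotype difference therefore changed by -0.91 from one probe of the transcript to the other, and by -1.12 from A_51_P504114.

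For Atp8a1, probe A_52_P534844 read 9.57, 10.02, 9.79 and 9.58 under the Mrp4-null label and 10.49, 10.38, 10.52 and 10.41 in wild-type. No array of one group reached the other, and the gap between them was 0.361. The log2 difference was -0.71 (SE 0.11, n = 4 per genotype, 95% interval -0.97 to -0.45), or 1.63-fold lower. The part of the sex-linked transcripts was not tested for this probe either.

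The 3 remaining Atp8a1 probes overlapped between the groups. A_55_P2075294, matched to a predicted transcript, had a log2 difference of -0.11 (SE 0.16). A_66_P128448 and A_66_P131919, both matched to another Atp8a1 transcript, had -0.05 (SE 0.21) and -0.16 (SE 0.30). Taken within each array, A_52_P534844 shifted against these probes by -0.60, -0.66 and -0.55, and the within-array differences of the genotypes overlapped for A_66_P131919 alone. The position of the probes on the transcripts was not worked out here, so which exons or ends each reads is not described.

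**Figure D1:**
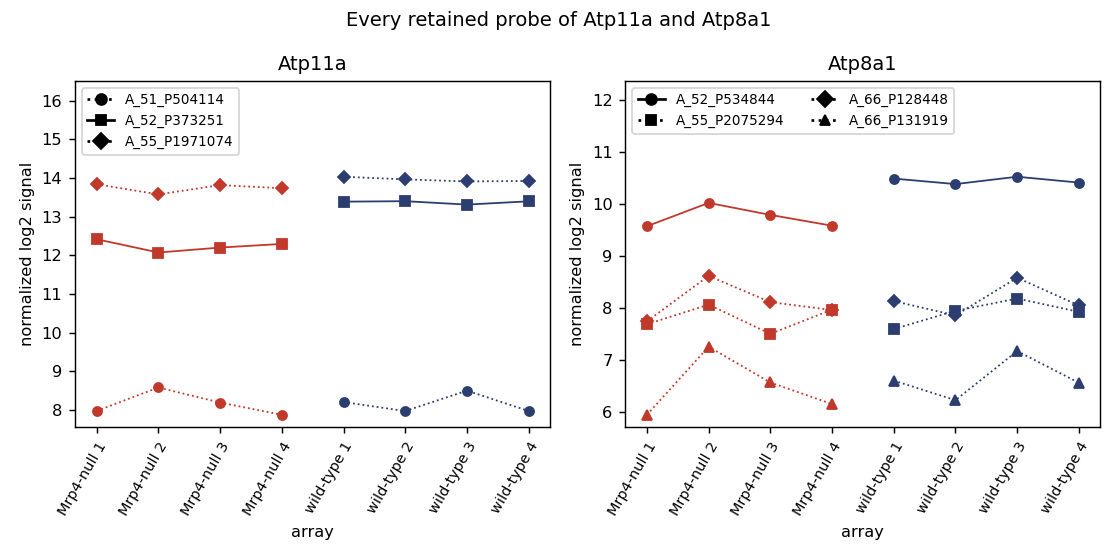
Normalized log2 signal (vertical axis) of each retained probe of Atp11a (left) and Atp8a1 (right) on the 8 arrays (horizontal axis), arrays labelled Mrp4-null in red and wild-type in blue, 1 marker shape per probe, with solid lines for the probe past the thresholds. A_52_P373251 lies 1.13 lower and A_52_P534844 0.71 lower under the Mrp4-null label, and levels of different probes are not comparable.

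A probe counted as called when it passed a fold change of at least 1.5 and a limma adjusted p under 0.05 in the fit over all retained probes. By that rule the values known when the genes were listed include 2 called flippase probes of 19, both lower, beside 0.545% of all retained probes in either direction and 0.289% in the lower direction. By gene it was 2 of 9, beside 0.652% of the 16093 named genes tested. Nothing is read from these counts, since the same contrast entered the choice of the genes, and for them a call is a description and not a test. Among the 107 lower calls ordered from the most negative, the Atp11a probe stood 54th and the Atp8a1 probe 91st. With 1 array left out, the log2 difference was -1.19 to -1.07 for the Atp11a probe and -0.81 to -0.65 for the Atp8a1 probe. The Atp8a1 difference stayed past 1.5-fold throughout, but its adjusted p was under 0.05 only without Mrp4-null array 2 and missed that limit without any 1 of the other 7 arrays. These values come from the arrays on which the genes were chosen and are no independent support.

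**Figure D2:**
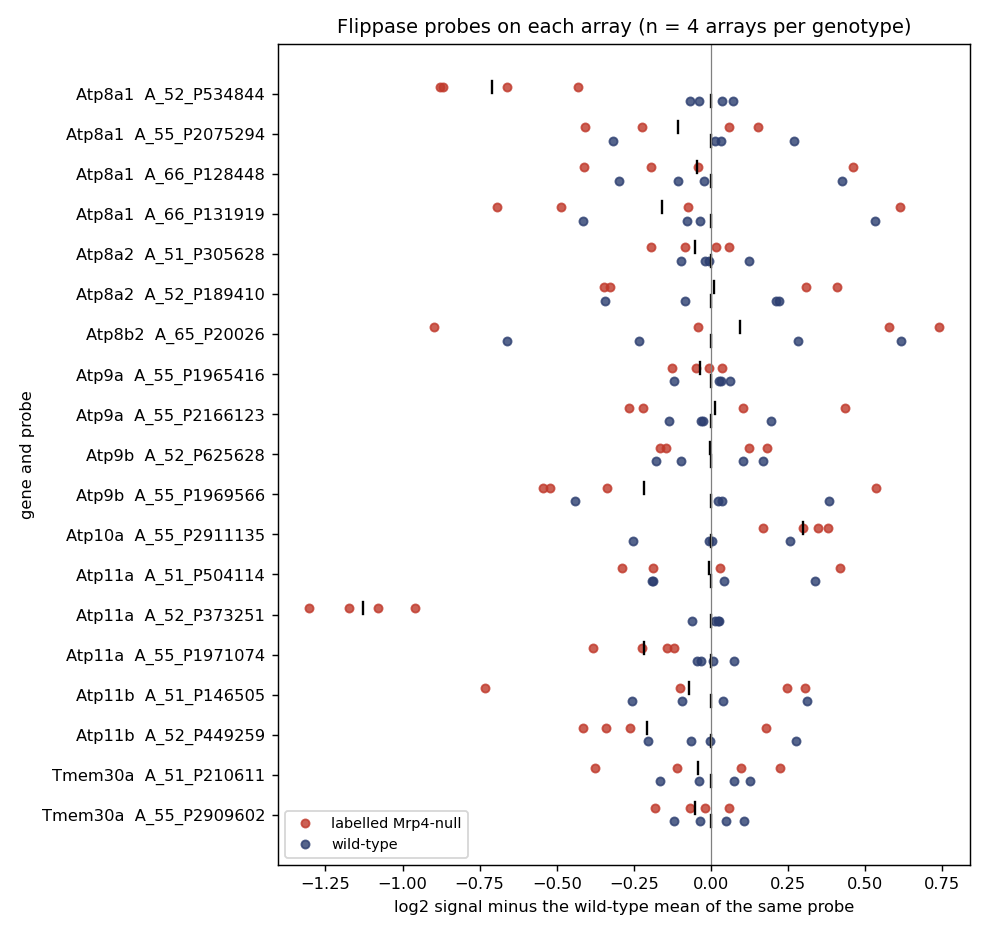
Log2 signal of the 19 retained flippase probes on each array minus the wild-type mean of the same probe (horizontal axis), by gene and probe (vertical axis); points are single arrays, red for the Mrp4-null label and blue for wild-type, and black ticks are group means of 4 arrays. In 3 probes, 2 of Atp11a and 1 of Atp8a1, no point of one group reaches the other.

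The groups did not overlap in 3 of the 19 flippase probes, all lower, against 4.79% of all retained probes in either direction and 2.36% in the lower one. Of the 19 probes, 15 had a lower mean under the Mrp4-null label and 4 a higher one, with a median of -0.05, beside a median of -0.01 and 53.2% lower over all retained probes. For the 17 probes that were not called, the 95% intervals together ran from -0.84 to 0.99. In 13 of them the interval lay within 0.58 of 0 on either side, the size of a 1.5-fold change, and in the other 4 it reached past that size. The intervals describe the precision of the mean difference and, as the genes were listed with this contrast known, are not used as a test.

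Atp8a2, the photoreceptor flippase, was measured by 2 probes of 1 transcript. A_51_P305628 had a log2 difference of -0.05 (SE 0.09, 95% interval -0.25 to 0.15) and A_52_P189410 of 0.01 (SE 0.21). Groups overlapped in both.

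Tmem30a, the accessory subunit on which Atp8a1, Atp8a2 and Atp11a depend, was also close in the genotypes. Probe A_51_P210611 read 11.27, 10.80, 11.07 and 11.40 under the Mrp4-null label and 11.14, 11.30, 11.01 and 11.25 in wild-type, a log2 difference of -0.04 (SE 0.14). Probe A_55_P2909602 had -0.05 (SE 0.09, 95% interval -0.25 to 0.15). The lowest Mrp4-null value at both was on array 2.

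Atp11b, an endosomal relative of Atp11a, had differences of -0.07 (SE 0.23) at A_51_P146505 and -0.21 (SE 0.15) at A_52_P449259. At the first of these, the arrays labelled Mrp4-null read 11.74, 10.76, 11.39 and 11.80 and those of wild-type 11.40, 11.80, 11.24 and 11.53. The groups overlapped, with Mrp4-null array 2 the lowest of the 8.

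Atp10a, a phosphatidylcholine flippase, had the largest higher value among the 9 genes. Probe A_55_P2911135 read 8.02, 7.90, 8.07 and 8.11 under the Mrp4-null label and 7.47, 7.72, 7.73 and 7.98 in wild-type, a log2 difference of 0.30 (SE 0.11, 95% interval 0.04 to 0.56). Wild-type array 4 lay above Mrp4-null array 2, so the groups overlapped, and the probe was not called. The other Atp10a probes did not pass the filter: A_51_P320022 was well above background on 3 arrays of each genotype and A_55_P2821178 on none.

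Atp8b2, which also moves phosphatidylcholine, had the widest spread among the 9 genes. Probe A_65_P20026 read 7.52, 5.88, 6.74 and 7.36 under the Mrp4-null label and 6.55, 7.39, 6.12 and 7.06 in wild-type, a log2 difference of 0.09 (SE 0.39, 95% interval -0.80 to 0.99). A difference of 1.5-fold either way lay inside that interval. The other Atp8b2 probe, A_55_P2934452, was well above background on none of the 8 arrays.

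Atp9a and Atp9b are the endosomal and Golgi members that reach their membranes without Tmem30a. Atp9a had log2 differences of -0.04 (SE 0.08, 95% interval -0.21 to 0.14) at A_55_P1965416 and 0.01 (SE 0.16) at A_55_P2166123. Atp9b had -0.00 (SE 0.12) at A_52_P625628 and -0.22 (SE 0.26) at A_55_P1969566. The groups of arrays overlapped in all 4 probes.

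**Figure D3:**
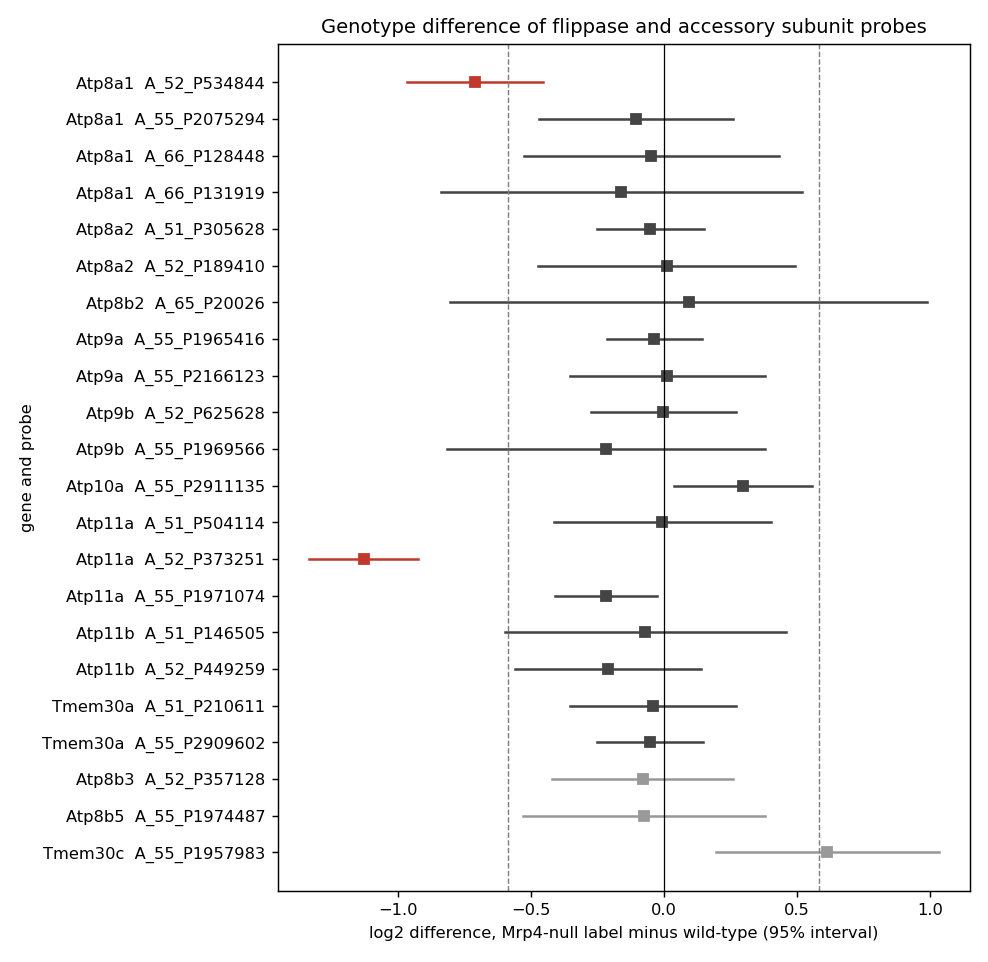
Log2 difference of the Mrp4-null label minus wild-type with its 95% interval from limma (horizontal axis) for each retained probe (vertical axis) of the flippase genes (black, called probes red) and of Atp8b3, Atp8b5 and Tmem30c (grey), with dashed lines at a 1.5-fold change and n = 4 arrays per genotype. Only A_52_P373251 of Atp11a and A_52_P534844 of Atp8a1 are red, at -1.13 and -0.71.

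The arrays of 1 genotype also differed among themselves, and the pattern was shared by the genes. By the 75th percentile of the unnormalized signal, Mrp4-null array 2 and wild-type array 3 were the 2 dimmest. On them, 18 of the 19 flippase probes deviated in the same direction from the other 3 arrays of their genotype. On both arrays 12 probes lay above and 6 below, and the exception was Atp10a A_55_P2911135. The same held for 79.4% of all 37075 retained probes measured on every array. Deviations ran from -1.32 to 1.03 on the Mrp4-null array and from -0.88 to 0.71 on the wild-type array.

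Probes of 1 gene took opposite sides on these arrays. Atp11b A_51_P146505 lay -0.88 and -0.34 from the other arrays of its genotype, and Atp11b A_52_P449259 lay 0.52 and 0.37 from them. In Atp11a, A_51_P504114 stood 0.57 and 0.45 above the others, whereas A_52_P373251 stood at -0.23 and -0.08. All 4 Atp8a1 probes were highest on both arrays, each among the 4 of its genotype. Without these arrays the median standard deviation of a flippase probe was 0.161 rather than 0.262 under the Mrp4-null label and 0.134 rather than 0.202 in wild-type. Without both, the difference of A_52_P373251 was -1.08 and that of A_52_P534844 was -0.78.

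**Figure D4:**
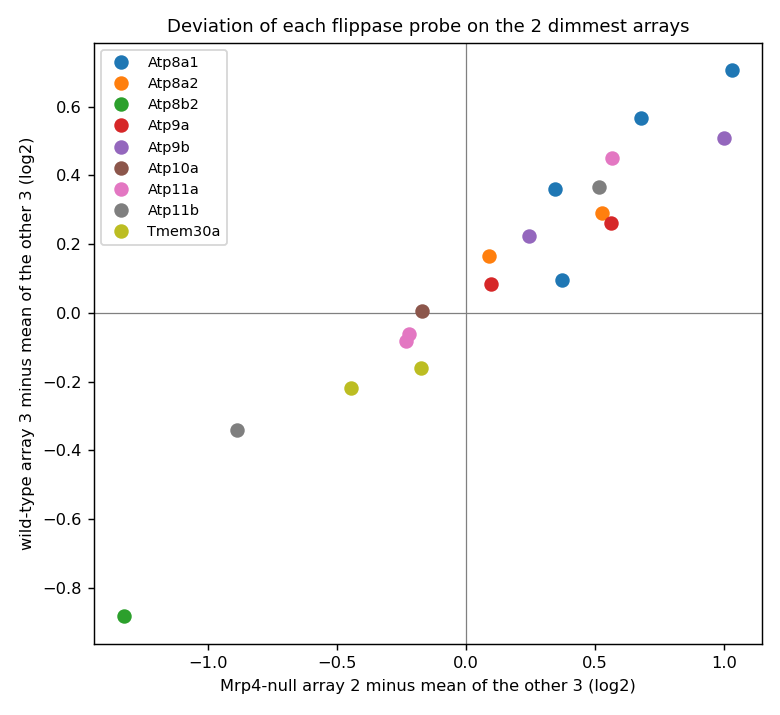
Deviation of each retained flippase probe on Mrp4-null array 2 (horizontal axis) and on wild-type array 3 (vertical axis) from the mean of the other 3 arrays of the same genotype, in log2 units, coloured by gene. Of 19 points, 12 lie in the upper right and 6 in the lower left, with probes of Atp11a and of Atp11b in both.

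The probes whose profile over the 8 arrays was most like the Atp11a probe A_52_P373251 were those of Lrrc8e (Pearson's r = 0.999), a subunit of volume-regulated anion channels, and Enox1 (r = 0.995). For the Atp8a1 probe A_52_P534844 they were those of Kbtbd11 (r = 0.993) and Rbm28 (r = 0.987). Lrrc8e had a log2 difference of -1.86 (SE 0.14) and lies on chromosome 8, as Atp11a does. Enox1 (-2.38, SE 0.21) lies on chromosome 14, as Abcc4 does. Kbtbd11 (-2.13, SE 0.24) lies on chromosome 8 and Rbm28 (-0.83, SE 0.14) on chromosome 6, while Atp8a1 lies on chromosome 5. The points of each profile are the same 8 arrays in 2 groups of 4, and the probes were picked for following this profile, so their values are given with no test.

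Calls among the neighbours of the flippase genes were counted over the 10 tested genes on either side in gene order. Of the 20 around Atp11a none was called, although 35 of the 837 tested genes of chromosome 8 were. Around Atp8a1, on chromosome 5, 3 of the 20 were called, against 6 of the 999 tested genes of that chromosome. Uchl1, a neuronal ubiquitin hydrolase, had a log2 difference of -0.67 (limma adjusted p = 0.0234) and Nsun7 of -0.84 at probe A_55_P2743592 (adjusted p = 0.0445). A second Nsun7 probe, A_51_P367025, had -0.69 with overlapping groups and was not called (adjusted p = 0.327). Gabra2, a GABA-A receptor subunit, was higher by 0.83 (adjusted p = 0.0070). None of the 20 neighbours was called around any of the other 7 genes. Among these, Atp8a2 lies on chromosome 14, where 20 of the 558 tested genes were called. On the chromosomes of the rest, 0.08% to 0.38% were.

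The rest of the family and the genes that work beside it did not pass the test. Their lists were also chosen with earlier results of these data known, which limits what the absence of calls shows. Of 6 other flippase genes, 5 had a probe and 2 a retained one. Atp8b3 had a log2 difference of -0.08 (SE 0.15) and Atp8b5 of -0.07 (SE 0.20) at A_55_P1974487, its other probe, A_51_P203653, being well above background on none of the 8 arrays, while the probes of Atp8b1, Atp8b4 and Atp10b did not pass the filter. Among the other accessory subunits, Tmem30b was not retained and Tmem30c, a relative of Tmem30a known from the testis, had the widest difference. Its retained probe A_55_P1957983 read 6.58, 6.14, 6.49 and 6.97 under the Mrp4-null label and 6.01, 5.85, 5.64 and 6.20 in wild-type, a log2 difference of 0.62 (SE 0.18) that did not pass the test (adjusted p = 0.398), and wild-type array 4 overlapped Mrp4-null array 2. The other Tmem30c probe, A_52_P198561, was well above background on none of the 8 arrays.

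Scramblases, which undo the work of flippases by letting phosphatidylserine pass in both directions, had 15 retained probes of 11 genes and 0 called. Their median difference was -0.03, and the widest was Atg9a at 0.18 (SE 0.13). Of the enzymes that make phosphatidylserine or convert it, Ptdss1, Ptdss2 and Pisd, 0 of 5 probes were called, and the widest was Pisd at -0.07. Phosphatidylserine recognition, by which the pigment epithelium and phagocytes bind exposed lipid, had 14 retained probes of 11 genes. Of these probes, 11 had a higher mean and 3 a lower one, 0 were called and the median was 0.13. Over all retained probes 46.8% had a higher mean, 0.545% were called and the median was -0.01. The widest was Pros1, a bridging ligand, at 0.28 (SE 0.14, adjusted p = 0.854). Trafficking partners of the flippases, of the Mon2 and Dop1 group, had 10 probes of 4 genes and 0 called, with Dop1a widest at -0.18. Over all of these lists 47 probes were tested by limma, of which 2 had an unadjusted p under 0.05 and 0 were called, beside 6.46% and 0.545% of all retained probes.

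**Figure D5:**
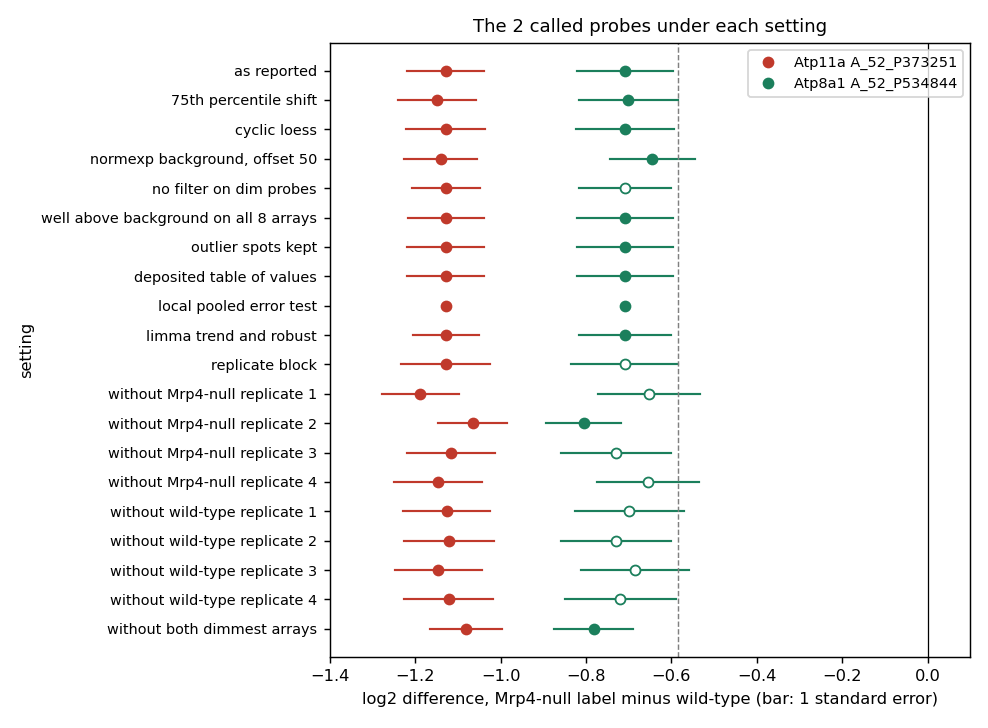
Log2 difference (horizontal axis) of Atp11a A_52_P373251 (red) and Atp8a1 A_52_P534844 (green) under each setting of the processing and with arrays left out (vertical axis), with bars of 1 standard error where the method gives one and filled points where the probe was called. Atp11a is filled throughout, whereas Atp8a1 is open without the filter on dim probes, with the replicate block and without any 1 array except Mrp4-null array 2; the dashed line is a 1.5-fold change.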

How the data were processed

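Retinal RNA of 4 arrays labelled Mrp4-null and 4 wild-type arrays was measured on Agilent SurePrint G3 mouse arrays. For each array the authors deposited a scanner file (Feature Extraction 11.0.1.1 per the labels), in which the processed signal intensity is already background-subtracted and not normalized between arrays. They also deposited a table of values, which held the mean processed intensity per probe to within 0.1% on every array, on a linear and unnormalized scale, and was used as an alternative. Of 62976 spots, 59305 were not controls. Outlier spots (78 to 143 per array) were left out and no non-control spot was saturated. The log2 intensity was averaged per probe, and a probe was kept if it exceeded background clearly (the scanner's well-above-background flag) on all measured arrays of 1 or both genotypes, with 3 or more arrays measured there and 2 or more in the other. Kept values were quantile-normalized. Between 66.0% and 69.9% of probes were well above background on an array. With arrays, the number of arrays limits the precision.

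Genotypes were compared with limma 3.58.1 (R 4.3.3; lmFit and eBayes, genotype only), with Benjamini-Hochberg adjustment over the 37085 kept probes. The threshold for a call was 1.5-fold together with an adjusted p under 0.05. Names came from RefSeq accessions of the GRCm38.p6 gene table, which matched 32994 probes (58.3%). The array design uses an older build, so no probe coordinates are given. Probes were not averaged within genes. The flippase genes and all other lists were chosen with earlier results of these data known. A further gene of the lists is not reported here. Named were every flippase probe, every retained probe of the other family members listed, per list the called genes and the gene with the largest difference, the 2 genes most like each probe past 1.5-fold, and called neighbours of at most 2 genes. Alternatives were another scaling (75th percentile, cyclic loess), normexp background correction, 2 other filters, outlier spots kept, the deposited table, the methods' local pooled error test, limma with trend and robust estimation, a replicate block, other thresholds and leaving out arrays.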

Additional observations from a re-analysis of the deposited data

Results flagged for a closer look

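Over the 19 retained flippase probes in each genotype and the 75th percentile of the signal, 40 groups of 4 arrays were searched for 1 array lying apart, measured as the gap to the nearest array over the group's whole range. Chance alone gives about 1 in 20 such groups, and 1 of the 40 exceeded Dixon's 95% critical value. It was the Atp11a probe A_52_P373251 in wild-type, with a ratio of 0.861. Array 3 read 13.31 there and the other wild-type arrays 13.39 to 13.40, and all 4 lay above every array labelled Mrp4-null.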

How the results depend on the processing

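The values here describe how the differences move with the processing and, for the flippase probes, which were listed with this contrast known, are no support for a call. Under 10 alternatives of processing and test, the difference was -1.15 to -1.13 for the Atp11a probe A_52_P373251 and -0.71 to -0.64 for the Atp8a1 probe A_52_P534844. A change of test or a replicate block alone leaves these differences as they are by construction. The Atp8a1 difference was -0.71 without the filter on dim probes and with the replicate block, and only its adjusted p missed the threshold there. The count of flippase probes called, 2 as reported, was 1 without the filter, 1 with the replicate block, 1 with a 2-fold threshold and 1 to 2 with 1 array left out. Over all retained probes, 202 were called as reported, 699 by fold change alone, 106 with a 2-fold threshold, 71 with the replicate block, 117 to 183 with 1 array left out and 124 without both dimmest arrays, an alternative chosen after seeing the data. The count of calls among the other family and partner genes, 0 as reported, became 1 by fold change alone, which was Tmem30c. Of 361 flippase differences under the other settings, all moved by less than 1 standard deviation between replicates. Leaving out 1 array of a group cannot shift the group mean by that much. For those settings, a change of test and the replicate block, the count was therefore fixed by construction and shows no stability. Of the 19 probes, 9, none of them called, changed sign under at least 1 setting. The causes of the lost calls were not tested.

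The replicate numbers were also the columns of the slide. Arrays sharing a number did not deviate together (correlations of -0.29, -0.69, 0.03 and 0.41, with 1 of 8 arrays closest to its own number), so the numbers were not taken as pairs. With 4 arrays per genotype, the intervals of 4 flippase probes that were not called reached past a 1.5-fold change in at least 1 direction. This describes the precision of the differences and tests nothing.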
